A study of Schizosaccharomyces pombe with 9 samples.

Results

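The genes described are 10 fission yeast genes for anti-silencing and active-chromatin factors: epe1, mst2, gcn5, set1, set2, leo1, paf1, lsd1, lsd2 and jmj2. They were chosen by their known roles and taken as the rows of the deposited count table with their identifiers. All 10 were found among the 4915 genes of the table. In fission yeast, heterochromatin carries methylation of histone H3 at lysine 9, written by the methyltransferase Clr4. Its spread is opposed by proteins that remove or block silent marks and by enzymes that place marks of active transcription. Epe1 is a JmjC-domain protein recruited to heterochromatin through the HP1 protein Swi6. Mst2 and Gcn5 are histone acetyltransferases, Set1 and Set2 methylate lysine 4 and lysine 36 of histone H3, and Paf1 and Leo1 belong to the Paf1 elongation complex. Lsd1 and Lsd2 are related LSD-family proteins of a shared complex, and Jmj2 is a further JmjC-domain protein.

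Polyadenylated RNA was sequenced from Schizosaccharomyces pombe cultures of 3 genotypes in log-phase growth in YEA medium at 32 °C. All genotypes carry a TetR-Mit1 fusion, in which the DNA-binding Tet repressor is joined to Mit1, the chromatin remodeler of the SHREC silencing complex. TetR-Mit1 (3 libraries) has the fusion alone, K587A (3 libraries) has the fusion labelled tetr-mit1k587a, with a lysine-to-alanine substitution in its Mit1 part, and clr4oe (2 libraries) is labelled tetrmit1_clr4oe and adds a clr4 overexpression to TetR-Mit1. Replicate 3 of clr4oe was not analysed here. The labels give 1 strain number for a genotype, so an effect of the strain and that of the genotype cannot be told apart. The labels do not say that the libraries of a genotype came from separate cultures, so the p-values measure the spread between libraries, which may be technical.

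Total counts were between 10367168 and 15920802 per library, and the 10 genes had between 310 and 3765 counts each. Expression is given as TMM-normalised CPM (counts scaled to the library's total and then between libraries), mean ± SD. The transcript of clr4 rose 4.96-fold in clr4oe over TetR-Mit1 (log2 2.31 ± 0.05 SE, adjusted p = 1.59e-21 by edgeR's quasi-likelihood test), in the direction of the label. Gene counts do not show the K587A substitution, and mit1 itself was 1.38-fold higher in K587A (log2 0.47 ± 0.03 SE, edgeR adjusted p = 2.37e-11). Transcripts that mark the M and the P mating types were detected in every library. Sums of these markers were scaled to the library total alone, without TMM, so their order between genotypes is not read. For 5 M-cell genes they were 128.9 to 136.9 CPM in K587A, 141.7 to 149.3 CPM in TetR-Mit1 and 154.1 to 155.1 CPM in clr4oe. For 2 P-cell genes they were 84.7 to 97.7 CPM in K587A, 79.7 to 89.6 CPM in TetR-Mit1 and 77.8 to 82.8 CPM in clr4oe. After TMM scaling, map3, the larger of the P-cell pair, was higher in K587A than in TetR-Mit1 (log2 0.30 ± 0.06 SE, edgeR adjusted p = 0.000144). It was lower in clr4oe than in K587A (log2 -0.31 ± 0.07 SE, edgeR adjusted p = 0.000178). Map2 did not reach an adjusted p under 0.05 in any comparison. The gene his6 on the other strand overlaps 1755 bp of map3. Reads in that overlap cannot be told apart, since the strand setting of the counting is not given. No M-cell gene reached an adjusted p under 0.05 in K587A against TetR-Mit1 (edgeR adjusted p from 0.0933 to 0.701), and their signs were mixed. Mam1 was higher in clr4oe than in TetR-Mit1 (log2 0.20 ± 0.06 SE, edgeR adjusted p = 0.0044). Against K587A, mam1 (log2 0.18 ± 0.06 SE) and mam2 (log2 0.32 ± 0.09 SE) were higher in clr4oe and mfm3 was lower (log2 -0.56 ± 0.19 SE). Single markers thus differed between genotypes, and their part in the results was not tested. Lower mRNA per cell and fewer expressing cells cannot be told apart in these bulk cultures.

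Set against TetR-Mit1, K587A had more gcn5, paf1, set1, set2 and leo1 mRNA and less jmj2 and mst2 mRNA. The 7 changes were small, from 1.08-fold to 1.27-fold in size. A gene was counted as higher or lower at an edgeR adjusted p under 0.05, taken over all 4887 tested genes, and 52.3% of those genes passed in this comparison (27.3% higher and 25% lower). At 7 of 10, with 5 higher and 2 lower, the share that passed was read against that background. The median absolute log2 fold change was 0.143 for the 10 genes and 0.142 for all tested genes. The libraries of the groups did not overlap for 8 of the 10 genes, against 58.7% of all tested genes.

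In clr4oe, 3 of the 10 genes rose over TetR-Mit1, namely paf1, lsd1 and lsd2, and none fell. Each rise was between 1.14-fold and 1.15-fold. In the same comparison 65.1% of all tested genes passed the test (32.1% higher). The median absolute log2 fold change was 0.117 for the 10 genes and 0.224 for all tested genes. Library ranges did not overlap for 6 of the 10 genes, against 74.9% of all tested genes. With upper-quartile scaling gcn5 also passed, as lower, and the split was 3 higher and 1 lower.

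The direct comparison of clr4oe with K587A gave the largest single differences among the 10 genes. In clr4oe, gcn5, set1 and set2 were lower and jmj2, lsd2, mst2 and lsd1 were higher. These 7 of 10 stand against 71.7% of all tested genes (35.4% higher and 36.4% lower). Library ranges did not overlap for 9 of the 10 genes, against 79.2% of all tested genes. The median absolute log2 fold change was 0.159 for the 10 genes and 0.280 for all tested genes. With upper-quartile scaling, which moved the median of all genes to a log2 fold change of -0.08, 6 genes passed. The split then was 1 higher (jmj2) and 5 lower (gcn5, set1, set2, paf1 and leo1), in place of 4 higher and 3 lower.

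**Figure D1:**
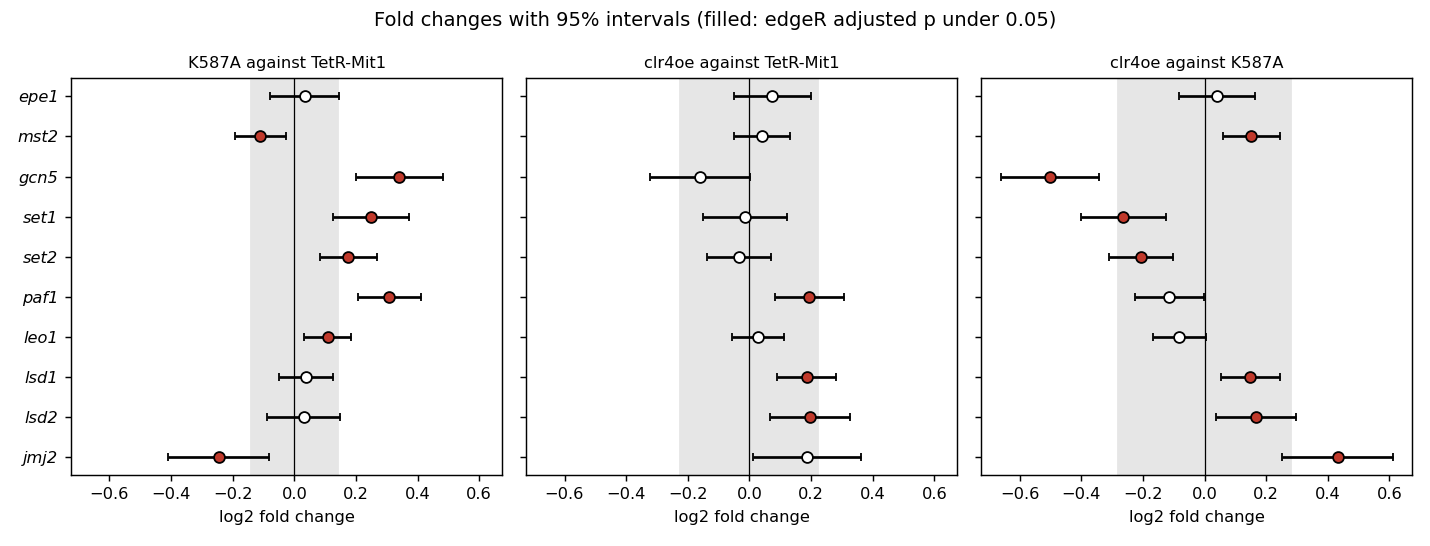
Log2 fold changes (x axis) of the 10 genes with 95% confidence intervals in the 3 comparisons; filled points passed an edgeR adjusted p under 0.05, and the grey band spans plus and minus the median absolute log2 fold change of all tested genes. The point for gcn5 lies furthest from 0 for K587A over TetR-Mit1 (0.34) and for clr4oe over K587A (-0.50), and the points for epe1 are open in all 3 panels.

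By their counts, the 10 genes were expressed at or below the middle of the transcriptome, except for the genes of the Paf1 complex. Genes on the other strand cover 100% of leo1 and 100% of mst2. Their reads cannot be told apart, since the strand setting of the counting is not given. The levels of leo1 and mst2, and their places in the order of all 3 genotypes, are therefore not settled. Per kb of exon, the median tested gene had 45.7 CPM in TetR-Mit1. The genes leo1 and paf1 lay at 92.0 ± 2.23 and 88.3 ± 6.12 CPM per kb (SD, n = 3), higher than 75.9% and 75.0% of tested genes. A middle group was formed by mst2 at 43.0 ± 0.249, set2 at 36.4 ± 1.10 and lsd1 at 35.7 ± 0.156 CPM per kb (SD, n = 3).

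The remaining 5 genes were low and close together in TetR-Mit1. Per kb of exon, lsd2 had 19.5 ± 1.43, epe1 17.9 ± 0.479, gcn5 17.001 ± 0.417, jmj2 16.9 ± 0.685 and set1 16.4 ± 0.594 CPM (SD, n = 3). Neighbours in this order, from lsd2 to set1, overlapped in their TetR-Mit1 libraries, as did leo1 with paf1 and set2 with lsd1. Gaps without overlap separated paf1 from mst2, mst2 from set2 and lsd1 from lsd2.

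The order of the low genes differed between genotypes. In K587A, gcn5 led them at 21.6 ± 0.427 CPM per kb and jmj2 was last at 14.2 ± 0.263 CPM per kb (SD, n = 3). In clr4oe, gcn5 was last at 15.2 ± 0.193 CPM per kb (SD, n = 2), below set1 at 16.2 ± 1.58 CPM per kb (SD, n = 2), whose libraries overlapped those of gcn5. In both of these genotypes paf1 lay above leo1 without overlap.

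**Figure D2:**
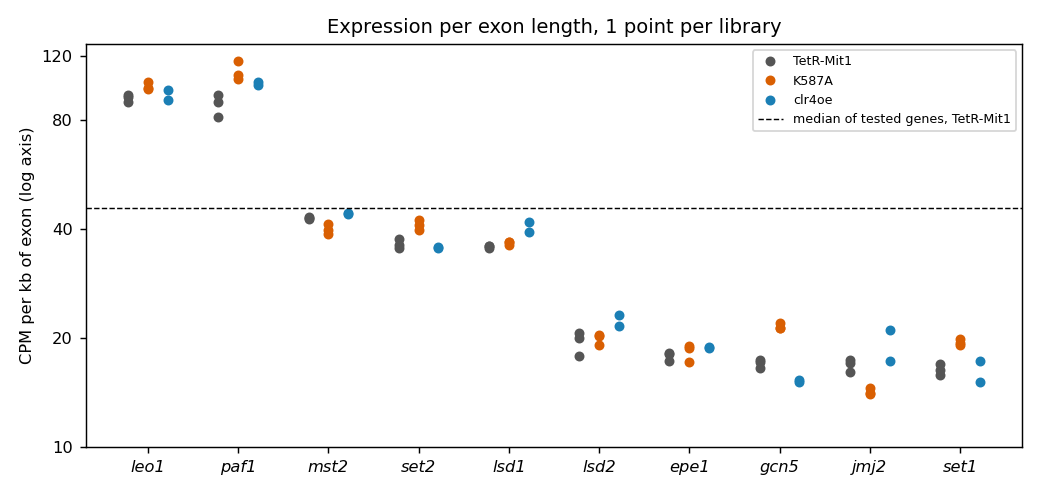
CPM per kb of exon on a log axis for the 10 genes, with 1 point per library and colours for the genotypes; the dashed line is the median of all tested genes in TetR-Mit1 (45.7 CPM per kb). Leo1 and paf1 lie above the line in every library, and the other 8 genes lie below it. Points of leo1 and mst2 may include reads of the genes on the other strand that cover them.

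Epe1 mRNA was at nearly the same level in the 3 genotypes. Epe1 (SPCC622.16c, chromosome III) is best known for limiting the spread and inheritance of H3K9 methylation. Its TetR-Mit1 libraries had 72.1, 69.2 and 72.8 CPM. The K587A libraries had 68.5, 76.1 and 74.8 CPM and enclosed this range. In clr4oe it had 75.0 and 75.2 CPM, just above every TetR-Mit1 library and inside the K587A range.

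No comparison of epe1 passed the test, and the intervals leave room for small differences. The ratio of K587A to TetR-Mit1 was 1.02 (95% interval 0.947 to 1.11, edgeR adjusted p = 0.626). For clr4oe against TetR-Mit1 it was 1.05 (95% interval 0.966 to 1.15, edgeR adjusted p = 0.283). For clr4oe against K587A it was 1.03 (95% interval 0.943 to 1.12, edgeR adjusted p = 0.555). Of the 10 genes, epe1 had the narrowest range of group means, 0.08 on the log2 CPM scale. Long non-coding RNAs annotated on the other strand overlap epe1 by 1934 bp and 941 bp. Whether their reads were counted for epe1 is not known, since the strand setting of the counting is not given.

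The clr4 transcript was also compared with that of epe1 within each library, since their proteins act in opposite directions on H3K9 methylation. Per kb of exon, the ratio of clr4 to epe1 was 0.674, 0.705 and 0.757 in the TetR-Mit1 libraries and 0.733, 0.718 and 0.706 in those of K587A. These groups overlapped. In clr4oe it was 3.43 and 3.29, so by this measure clr4 exceeded epe1 in both clr4oe libraries and in none of the others. Which gene lay higher depends on the annotated exon lengths, and other lengths were not tried for this ratio. The annotated gene meu6 covers 54.2% of clr4 and rose with it by 2.37 ± 0.07 (log2, SE).

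Genes for the ubiquitin ligase that marks Epe1 for destruction passed the test in some comparisons, while epe1 passed in none. In fission yeast this ligase contains Cul4 and Ddb1 with the adaptor Cdt2. With bdf2, whose bromodomain protein works with Epe1 at heterochromatin boundaries, they form a list of 4 genes. In K587A against TetR-Mit1, 3 of the 4 were higher and 1 was lower, beside 27.3% and 25% of all tested genes. Bdf2 was higher by 0.30 ± 0.04 (log2, SE, edgeR adjusted p = 9.08e-07), ddb1 by 0.29 ± 0.05 (adjusted p = 4.41e-05) and cdt2 by 0.29 ± 0.06 (adjusted p = 0.000277). Cul4 was the lower gene (log2 -0.21 ± 0.07 SE, edgeR adjusted p = 0.0122). The cul4 call was lost without TetR-Mit1 replicate 2 (adjusted p = 0.0561) and without K587A replicate 1 (adjusted p = 0.0785).

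Ddb1 and cdt2 were instead lower in clr4oe than in TetR-Mit1, beside 33% of all tested genes. Cul4 did not pass there (log2 0.15 ± 0.07 SE, edgeR adjusted p = 0.08). Cdt2 had 46.5 ± 0.653 CPM in clr4oe (SD, n = 2) beside 62.8 ± 5.75 CPM in TetR-Mit1 (SD, n = 3), a log2 difference of -0.43 ± 0.07 SE (edgeR adjusted p = 8.96e-06), and ddb1 fell by 0.21 ± 0.06 (log2, SE, edgeR adjusted p = 0.00429). Bdf2 was slightly higher (log2 0.12 ± 0.05 SE, edgeR adjusted p = 0.0227), a call lost with upper-quartile scaling (adjusted p = 0.176) and without TetR-Mit1 replicate 1 (0.0617), TetR-Mit1 replicate 2 (0.0999) or clr4oe replicate 1 (0.155). Between clr4oe and K587A all 4 genes passed, beside 71.7% of all tested genes. Cdt2 differed by -0.73 ± 0.07, ddb1 by -0.50 ± 0.06 and cul4 by 0.36 ± 0.07 (log2, SE). Bdf2 was the other lower gene. The lists of related genes were small, and most genes of the genome passed these tests, so counts within a list are given as a description.

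Of the acetyltransferase genes, gcn5 was higher in K587A, and the lower mst2 counts there were less certain. Gcn5 (SPAC1952.05, chromosome I), the catalytic subunit of the SAGA coactivator, had 36.0, 35.6 and 34.3 CPM in TetR-Mit1. In K587A it had 44.2, 44.3 and 45.8 CPM, all above TetR-Mit1. In clr4oe it had 31.3 and 31.9 CPM, below every library of the other genotypes.

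The rise of gcn5 in K587A was 1.27-fold (log2 0.34 ± 0.07 SE, edgeR adjusted p = 0.00017), a size exceeding that of 82.9% of tested genes. In clr4oe it was at 0.895 of the TetR-Mit1 level, a log2 difference of -0.16 ± 0.08 SE that did not pass (edgeR adjusted p = 0.0767; 0.022 with upper-quartile scaling). Set directly against K587A, clr4oe had 0.707 times as much gcn5 mRNA (log2 -0.50 ± 0.08 SE, edgeR adjusted p = 3.07e-06). The gene SPAC1952.06c overlaps 3.33% of gcn5 on the other strand and did not pass the test in any comparison.

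Mst2 (SPAC17G8.13c, chromosome I) is the MYST-family enzyme that acetylates histone H3 and counteracts silencing together with Epe1. Its TetR-Mit1 libraries had 140.5, 141.5 and 139.9 CPM. Those of K587A had 130.1, 126.5 and 134.8 CPM and lay below them, and those of clr4oe had 144.4 and 145.0 CPM and lay above them.

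Mst2 was lower in K587A than in TetR-Mit1 with a log2 difference of -0.11 ± 0.04 SE (edgeR adjusted p = 0.024). That call was lost without TetR-Mit1 replicate 1 (adjusted p = 0.0527), TetR-Mit1 replicate 2 (0.0624), K587A replicate 1 (0.0505) or K587A replicate 2 (0.112). The difference of clr4oe from TetR-Mit1 was 0.04 ± 0.04 SE on the log2 scale (edgeR adjusted p = 0.42), with a 95% interval from -0.05 to 0.13. From K587A to clr4oe mst2 rose by 0.15 ± 0.04 (log2, SE, edgeR adjusted p = 0.00391; 0.0756 with upper-quartile scaling).

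The counts of mst2 have a further limit. The annotated gene sec3, on the other strand, covers 100% of mst2, and the ratio of mst2 to sec3 counts was between 0.961 and 1.04 in all 8 libraries. Sec3 also changed with mst2, by -0.13 ± 0.04 from TetR-Mit1 to K587A and by 0.18 ± 0.05 from K587A to clr4oe (log2, SE). The strand setting of the counting is not given in the sources used here, so reads of these genes cannot be told apart. As a ratio per kb of exon, gcn5 to mst2 was 0.396 ± 0.00858 in TetR-Mit1, 0.541 ± 0.00972 in K587A (SD, n = 3 each) and 0.344 ± 0.00339 in clr4oe (SD, n = 2), with no overlap between groups.

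Of 6 genes for partners of Mst2, 4 were higher in K587A and none was lower, beside 27.3% higher and 25% lower of all tested genes. The list is small, so the count is a description. Ptf2 (log2 0.35 ± 0.05 SE, edgeR adjusted p = 8.61e-07) and tfg3 (log2 0.30 ± 0.04 SE, edgeR adjusted p = 2.88e-06) rose most, beside ptf1 and pdp3. The ribosomal protein gene rps3, on the other strand, overlaps 9.62% of ptf2 and had log2 differences of 0.39 in K587A over TetR-Mit1, -0.48 in clr4oe over TetR-Mit1 and -0.87 in clr4oe over K587A, close to those of ptf2 in each. Reads of ptf2 and rps3 in the overlap cannot be told apart. Pdp3 is the PWWP-domain subunit that ties the Mst2 complex to the lysine 36 methylation made by Set2. From TetR-Mit1 to clr4oe 2 of the 6 rose and 1 fell, beside 32.1% higher and 33% lower of all tested genes. Ptf1 rose by 0.27 ± 0.05 (log2, SE). Ptf2 had 315 ± 1.42 CPM in clr4oe (SD, n = 2) beside 434 ± 5.19 CPM in TetR-Mit1 (SD, n = 3), a log2 difference of -0.46 ± 0.05 SE (edgeR adjusted p = 4.86e-08). Eaf6 also rose (log2 0.23 ± 0.08 SE, edgeR adjusted p = 0.0155), a call lost with upper-quartile scaling (0.0526) and without TetR-Mit1 replicate 2 (0.0934) or clr4oe replicate 1 (0.154). Ptf2 and tfg3 were lower in clr4oe than in K587A, with log2 differences of -0.81 ± 0.05 and -0.32 ± 0.05 SE.

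Genes for SAGA subunits other than Gcn5 showed no shared direction. In K587A, 3 of 18 were higher and 2 were lower than in TetR-Mit1, beside 27.3% and 25% of all tested genes. Ngg1, an adaptor of the Gcn5 module, rose by 0.28 ± 0.05 (log2, SE), and sgf73, of the deubiquitination module, fell by 0.25 ± 0.07 (log2, SE). Taf12 (log2 0.16 ± 0.06 SE) and hfi1 (log2 -0.23 ± 0.07 SE) passed too. The taf12 call was lost without TetR-Mit1 replicate 2 (adjusted p = 0.0656) or K587A replicate 3 (0.138), and the hfi1 call without TetR-Mit1 replicate 2 (0.0601).

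Between clr4oe and TetR-Mit1, 5 of the 18 SAGA genes were higher and 4 were lower in clr4oe. The shares of all tested genes were 32.1% and 33%. The largest rises were in sgf11 (log2 0.43 ± 0.08 SE) and taf6 (log2 0.35 ± 0.04 SE), and the largest falls in sus1 (log2 -0.33 ± 0.11 SE) and hfi1 (log2 -0.27 ± 0.08 SE). The sus1 call was lost without clr4oe replicate 1 (adjusted p = 0.0923). Genes on the other strand overlap 2.42% of sgf11 (mug10, log2 0.56) and 4.86% of hfi1 (SPBC887.17, log2 -1.30) and moved the same way here, while mug123, which covers 38.0% of taf6, did not pass. Against K587A, 6 were higher and 5 lower in clr4oe, beside 35.4% and 36.4% of all tested genes. Sgf73 (log2 0.56 ± 0.08 SE) and sgf11 (log2 0.36 ± 0.08 SE) were higher, and ngg1 (log2 -0.42 ± 0.06 SE) and sus1 (log2 -0.32 ± 0.11 SE) were lower, the last without passing when clr4oe replicate 1 was left out (0.106).

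Genes on the list of other acetyltransferases were lower in clr4oe. Of all tested genes, 33% were lower in clr4oe than in TetR-Mit1 and 36.4% were lower than in K587A. The list is small, so its count is a description. All 4 on the list (mst1, hat1, rtt109 and elp3) were lower than in TetR-Mit1, with rtt109 at -0.60 ± 0.10 and elp3 at -0.56 ± 0.05 (log2, SE), and all 4 were lower than in K587A, with -0.76 ± 0.10 and -0.67 ± 0.05 (log2, SE). The gene rpm2 on the other strand covers 63.0% of mst1 and was lower as well in both comparisons. Rtt109 acetylates histone H3 before its assembly into chromatin, and Elp3 is the catalytic subunit of Elongator. Between K587A and TetR-Mit1 elp3 was the gene of this list that passed (log2 0.11 ± 0.05 SE, edgeR adjusted p = 0.0415). That call was lost in 8 of 13 alternatives, with adjusted p up to 0.132 among them.

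**Figure D3:**
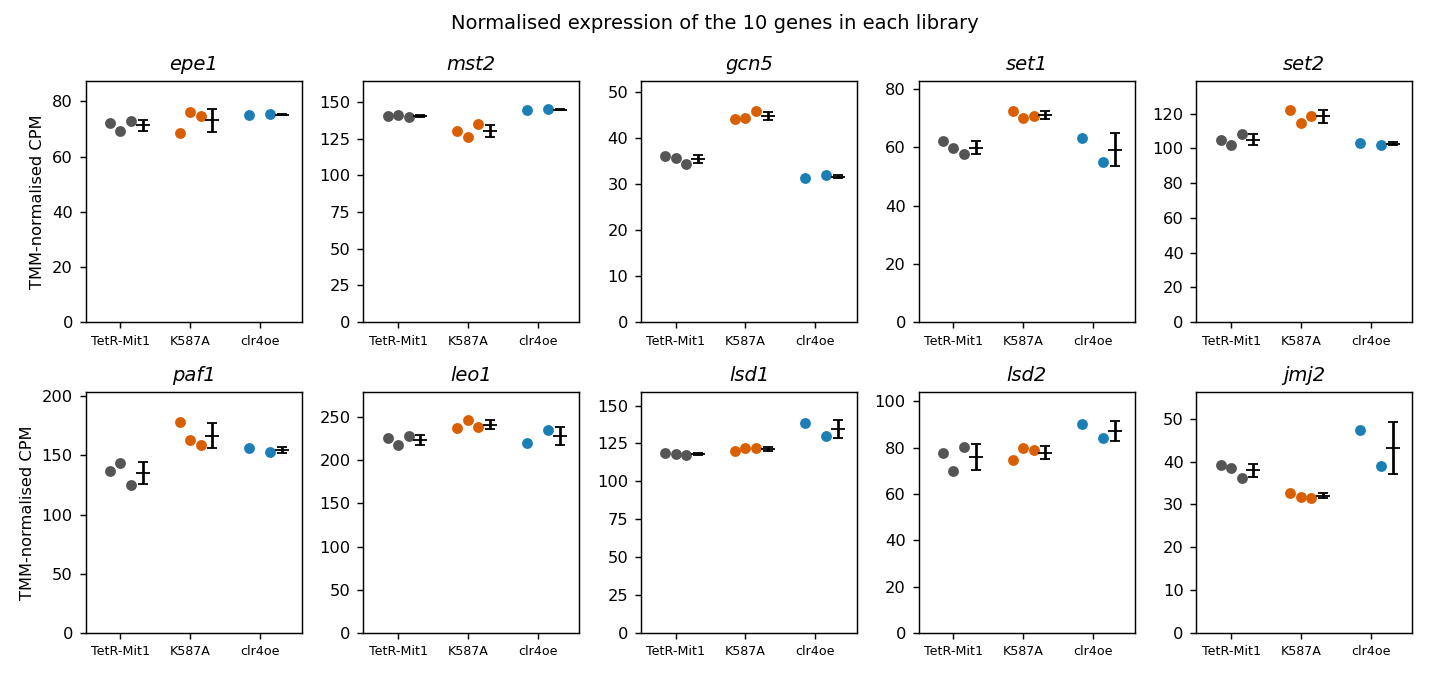
TMM-normalised CPM of the 10 genes, with 1 point per library and, beside each group, the mean and SD (n = 3 for TetR-Mit1 and K587A, n = 2 for clr4oe); every axis starts at 0. K587A points lie above TetR-Mit1 for gcn5, set1, set2, paf1 and leo1 and below it for jmj2 and mst2, and the epe1 points of the 3 groups lie between 68.5 and 76.1.

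Both histone methyltransferase genes were higher in K587A than in the other genotypes. Set1 (SPCC306.04c, chromosome III), which places lysine 4 methylation at promoters, had 62.1, 59.7 and 57.7 CPM in TetR-Mit1. In K587A it had 72.6, 69.9 and 70.6 CPM, above all TetR-Mit1 libraries. In clr4oe it had 63.3 and 55.1 CPM, which lay on either side of the TetR-Mit1 range. A long non-coding RNA on the other strand overlaps 612 bp of set1, with the limit given for epe1.

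The rise of set1 in K587A was 1.19-fold (log2 0.25 ± 0.06 SE, edgeR adjusted p = 0.00105). For clr4oe against TetR-Mit1 the ratio was 0.990, with a 95% interval of the log2 difference from -0.15 to 0.12 (edgeR adjusted p = 0.86). Against K587A, set1 was lower in clr4oe (log2 -0.26 ± 0.07 SE, edgeR adjusted p = 0.00107), and without clr4oe replicate 2 the log2 difference was -0.15 and did not pass (edgeR adjusted p = 0.0848).

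Set2 (SPAC29B12.02c, chromosome I) methylates lysine 36 in the bodies of transcribed genes. It had 104.5, 102.0 and 108.3 CPM in TetR-Mit1. The K587A libraries lay higher, at 122, 114.7 and 118.7 CPM. The clr4oe libraries, at 103.2 and 102.1 CPM, lay within the TetR-Mit1 range.

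Set2 rose 1.13-fold in K587A (log2 0.17 ± 0.04 SE, edgeR adjusted p = 0.00212). In clr4oe its ratio to TetR-Mit1 was 0.977 (95% interval 0.910 to 1.05, edgeR adjusted p = 0.583), and it was lower than in K587A with a log2 difference of -0.21 ± 0.05 SE (edgeR adjusted p = 0.000741). The ratio of set1 to set2 per kb of exon was 0.451 ± 0.0261 in TetR-Mit1, 0.473 ± 0.00699 in K587A (SD, n = 3 each) and 0.455 ± 0.0409 in clr4oe (SD, n = 2). Within clr4oe the 2 values, 0.484 and 0.426, enclosed all K587A values. The end of ino80 on the other strand covers 5.23% of set2, and ino80 did not move with set2: it was higher in clr4oe than in TetR-Mit1 (log2 0.16 ± 0.05 SE, edgeR adjusted p = 0.00531).

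Some genes for the other subunits of the Set1 complex (COMPASS) were higher in K587A, as set1 was. Of 7, 4 were higher in K587A than in TetR-Mit1 and none was lower. Of all tested genes, 27.3% were higher and 25% lower, so the count is a description. Swd2 (log2 0.44 ± 0.10 SE, edgeR adjusted p = 0.000404) and swd1 (log2 0.35 ± 0.06 SE, edgeR adjusted p = 1.22e-05), WD-repeat subunits, rose most, beside ash2 and sdc1, the last covered to 86.0% by SPCC18.10 on the other strand, which also rose. In clr4oe, ash2 fell from TetR-Mit1 by 0.14 ± 0.06 (log2, SE, edgeR adjusted p = 0.0314) and the other 6 did not pass. The ash2 call was lost with DESeq2 (0.0667) and without TetR-Mit1 replicate 3 (0.0968) or clr4oe replicate 1 (0.217).

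Against K587A, 4 of the 7 Set1 complex genes were lower in clr4oe and 1 was higher, beside 36.4% and 35.4% of all tested genes. Swd2 (log2 -0.51 ± 0.11 SE) and ash2 (log2 -0.43 ± 0.06 SE) were the lowest. The higher gene, shg1 (log2 0.24 ± 0.10 SE, edgeR adjusted p = 0.0423), lost its call in 6 of 12 alternatives, with adjusted p up to 0.248. On the other strand dma1 covers 33.7% of shg1 and was also higher (log2 0.29 ± 0.08 SE, edgeR adjusted p = 0.00147). In the Lid2 complex, which is linked to the removal of lysine 4 methylation, lid2 had 78.3 ± 5.49 CPM in clr4oe (SD, n = 2) beside 106.6 ± 4.83 CPM in TetR-Mit1 (SD, n = 3), a log2 difference of -0.44 ± 0.06 SE (edgeR adjusted p = 9.05e-07). It was also lower in clr4oe than in K587A (log2 -0.34 ± 0.06 SE). Jmj3, of the same complex, was lower than in TetR-Mit1 in K587A (log2 -0.17 ± 0.05 SE) and in clr4oe (log2 -0.19 ± 0.06 SE), the latter not without clr4oe replicate 2 (adjusted p = 0.080).

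Paf1 was higher than in TetR-Mit1 in both other genotypes. Paf1 (SPAC664.03, chromosome I) is the namesake subunit of a complex that travels with RNA polymerase II, and loss of its subunits is known to favour silencing. It had 136.8, 143.4 and 124.9 CPM in TetR-Mit1. The K587A libraries had 178.5, 163.0 and 158.8 CPM and the clr4oe libraries 156.1 and 152.7 CPM. All of these exceeded TetR-Mit1, and K587A lay above clr4oe. The long non-coding RNA SPNCRNA.2764 on the other strand overlaps 1511 bp of paf1 and is not in the count table. Its reads cannot be told apart from those of paf1, for the reason given for mst2.

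The rise of paf1 in K587A was 1.24-fold (log2 0.31 ± 0.05 SE, edgeR adjusted p = 9.54e-06), with a size exceeding that of 80.3% of tested genes. In clr4oe it was 1.14-fold (log2 0.19 ± 0.05 SE, edgeR adjusted p = 0.00311). The difference between clr4oe and K587A did not pass the test (log2 -0.11 ± 0.05 SE, edgeR adjusted p = 0.064). It did with upper-quartile scaling (0.00535), with the replicate number as a block (0.00787) and without K587A replicate 3 (0.0315).

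Leo1 (SPBC13E7.08c, chromosome II), the subunit of the Paf1 complex known in fission yeast for stopping heterochromatin from spreading past its borders, had 225.6, 217.6 and 228.0 CPM in TetR-Mit1. In K587A it had 237.5, 247.0 and 239.2 CPM, above each of these. The clr4oe libraries, at 220.5 and 235.6 CPM, overlapped TetR-Mit1.

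Leo1 rose 1.08-fold in K587A (log2 0.11 ± 0.04 SE, edgeR adjusted p = 0.0163), a call lost without TetR-Mit1 replicate 2 (0.0857) or K587A replicate 2 (0.0783). In clr4oe its ratio to TetR-Mit1 was 1.02 (95% interval 0.961 to 1.08, edgeR adjusted p = 0.582). Its difference from K587A was -0.08 ± 0.04 SE on the log2 scale (edgeR adjusted p = 0.0795; 0.00337 with upper-quartile scaling). The gene SPBC13E7.07 on the other strand covers 100% of leo1, at 0.940 to 1.02 leo1 counts per count of its own over the 8 libraries. It rose in K587A as well (log2 0.14 ± 0.04 SE, edgeR adjusted p = 0.0028), and reads of this pair cannot be told apart for the reason given for mst2.

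The other genes linked to the Paf1 complex did not rise with paf1. Of tpr1, cdc73 and prf1, none was higher than in TetR-Mit1 in either genotype. Of all tested genes, 27.3% were higher in K587A and 32.1% in clr4oe. Prf1, whose product is the Rtf1 relative that promotes ubiquitination of histone H2B, had 158.8 ± 6.21 CPM in TetR-Mit1 and 128.2 ± 0.887 CPM in K587A (SD, n = 3 each). This was a log2 difference of -0.31 ± 0.04 SE (edgeR adjusted p = 7.16e-07). It was at 158.6 ± 4.97 CPM in clr4oe (SD, n = 2), higher than in K587A (log2 0.31 ± 0.05 SE). Tpr1 was lower in clr4oe than in K587A (log2 -0.10 ± 0.04 SE, edgeR adjusted p = 0.0346), a call lost in 8 of 12 alternatives with adjusted p up to 0.192.

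The ubiquitination step itself is carried out by Rhp6 with Brl1 and Brl2. Brl1 fell in K587A (log2 -0.51 ± 0.06 SE, edgeR adjusted p = 2.33e-08) and in clr4oe (log2 -0.37 ± 0.06 SE, edgeR adjusted p = 1.17e-05) against TetR-Mit1. Rhp6 rose in K587A (log2 0.24 ± 0.05 SE) and in clr4oe (log2 0.18 ± 0.05 SE), the latter not without clr4oe replicate 2 (adjusted p = 0.0598). Brl2 did not pass in any comparison, and neither did sec8, which covers 93.1% of brl2 on the other strand. Reads of brl2 and sec8 cannot be told apart there. Brl1 was higher in clr4oe than in K587A by 0.15 ± 0.06 (log2, SE, edgeR adjusted p = 0.0399). That call was lost with upper-quartile scaling (0.233), with the replicate block (0.0687) and without K587A replicate 1 (0.127) or clr4oe replicate 1 (0.311).

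Lsd1 and lsd2 were higher in clr4oe than in the other genotypes. Lsd1 (SPBC146.09c, chromosome II) and Lsd2 (SPAC23E2.02, chromosome I) are relatives of the mammalian lysine demethylase LSD1 and act at promoters and heterochromatin borders. Lsd1 had 118.4, 118.4 and 117.5 CPM in TetR-Mit1. It had 119.8, 122.1 and 121.9 CPM in K587A, slightly above, and 138.6 and 130.1 CPM in clr4oe, above every other library. Long non-coding RNAs on the other strand overlap lsd1 by 1098, 476 and 297 bp and lsd2 by 623, 386 and 577 bp. Whether their reads were counted for these genes is not known, for the reason given for epe1.

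For lsd1 the rise in clr4oe was 1.14-fold over TetR-Mit1 (log2 0.19 ± 0.05 SE, edgeR adjusted p = 0.00109). The small excess in K587A did not pass (ratio 1.03, 95% interval 0.966 to 1.09, edgeR adjusted p = 0.477). From K587A to clr4oe lsd1 rose by 0.15 ± 0.05 (log2, SE, edgeR adjusted p = 0.00639). It was 0.08 with upper-quartile scaling (0.104) and 0.10 without clr4oe replicate 1 (0.115), and passed under neither.

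Lsd2 had 77.8, 69.8 and 80.5 CPM in TetR-Mit1 and 74.6, 79.7 and 79.1 CPM in K587A. These groups overlapped. In clr4oe it had 90.3 and 84.2 CPM, above both.

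Lsd2 rose 1.15-fold in clr4oe over TetR-Mit1 (log2 0.20 ± 0.06 SE, edgeR adjusted p = 0.00802), a call lost without TetR-Mit1 replicate 2 (0.0619) or clr4oe replicate 1 (0.124). In K587A the ratio was 1.02 (95% interval 0.941 to 1.11, edgeR adjusted p = 0.68). From K587A to clr4oe it was higher by 0.17 ± 0.06 (log2, SE, edgeR adjusted p = 0.0213). That value was 0.10 with upper-quartile scaling (0.144), 0.14 without K587A replicate 1 (0.0784) and 0.11 without clr4oe replicate 1 (0.213), with the call lost each time. Lsd1 exceeded lsd2 per kb of exon by a nearly constant ratio of 1.84 ± 0.145 in TetR-Mit1, 1.84 ± 0.0468 in K587A (SD, n = 3 each) and 1.82 ± 0.00831 in clr4oe (SD, n = 2).

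Of the PHD-finger partners of Lsd1 and Lsd2, phf2 was also higher in clr4oe, at 123.5 ± 2.14 CPM (SD, n = 2) beside 108.8 ± 2.88 CPM in TetR-Mit1 (SD, n = 3). This was a log2 difference of 0.18 ± 0.05 SE (edgeR adjusted p = 0.00162). It was higher than in K587A too (log2 0.19 ± 0.05 SE, edgeR adjusted p = 0.000858). Phf1 was at 0.11 ± 0.06 (log2, SE) relative to TetR-Mit1 and did not pass (edgeR adjusted p = 0.129).

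Jmj2 (SPAC1002.05c, chromosome I) was lowest in K587A. Its libraries had 39.2, 38.4 and 36.2 CPM in TetR-Mit1 and 32.7, 31.7 and 31.6 CPM in K587A, with no overlap. In clr4oe it had 47.4 and 38.9 CPM (coefficient of variation 14.0%). This is the most distant pair of replicates among the 10 genes relative to their mean. A long non-coding RNA on the other strand overlaps 214 bp of jmj2, with the limit given for epe1.

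The fall of jmj2 in K587A was to 0.843 of TetR-Mit1 (log2 -0.25 ± 0.08 SE, edgeR adjusted p = 0.0122), and without TetR-Mit1 replicate 1 it did not pass (0.0503). In clr4oe jmj2 stood at 0.19 ± 0.08 over TetR-Mit1 (log2, SE, edgeR adjusted p = 0.0572). This value rested on which clr4oe library was kept: it was 0.33 without replicate 2 (0.00515) and 0.03 without replicate 1 (0.783). Between clr4oe and K587A the difference was 0.43 ± 0.09 (log2, SE, edgeR adjusted p = 9.82e-05), or 0.28 without clr4oe replicate 1 (0.0173).

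Of 3 other genes for JmjC-domain proteins, 1 was higher and 1 was lower in K587A than in TetR-Mit1. The shares of all tested genes were 27.3% and 25%. Msc1 had the sign of jmj2 in all 3 comparisons. Jmj4 rose in K587A (log2 0.50 ± 0.07 SE, edgeR adjusted p = 1.06e-06) and fell in clr4oe (log2 -0.25 ± 0.08 SE, edgeR adjusted p = 0.00977) against TetR-Mit1, the latter not without TetR-Mit1 replicate 1 (0.0687) or clr4oe replicate 1 (0.0725). Its difference between clr4oe and K587A was -0.74 ± 0.08 (log2, SE). The gene str2 on the other strand, covers 100% of jmj4 and moved the same way in all 3 comparisons (log2 0.26, -0.27 and -0.53). Msc1 was lower in K587A (log2 -0.13 ± 0.05 SE, edgeR adjusted p = 0.0288), a call lost without TetR-Mit1 replicate 1 (0.122), TetR-Mit1 replicate 3 (0.0751) or K587A replicate 1 (0.158), and higher in clr4oe than in K587A (log2 0.21 ± 0.05 SE). Jmj1 did not pass in any comparison.

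**Figure D4:**
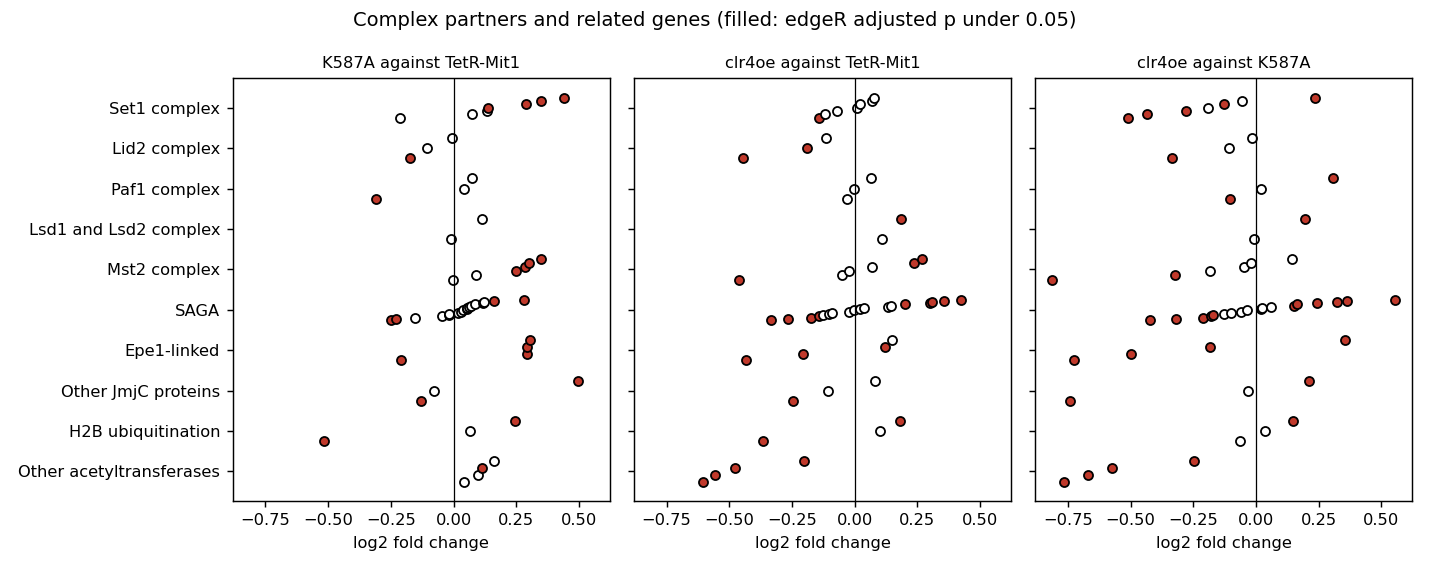
Log2 fold changes (x axis) of 53 genes for complex partners and related factors, by list (y axis), in the 3 comparisons; filled points passed an edgeR adjusted p under 0.05. Between clr4oe and TetR-Mit1 all 4 points for other acetyltransferases lie below 0 and are filled, beside 33% of all tested genes called lower. In K587A against TetR-Mit1 the 4 filled Set1 complex points lie above 0, beside 27.3% of all tested genes called higher.

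Over all 53 partner and related genes, 24 passed in K587A against TetR-Mit1 (17 higher and 7 lower, 45.3%), beside 52.3% of all tested genes. In clr4oe against TetR-Mit1, 26 passed (10 higher and 16 lower, 49.1%), beside 65.1%. In clr4oe against K587A, 33 passed (12 higher and 21 lower, 62.3%), beside 71.7%, and with upper-quartile scaling the split was 8 higher and 27 lower. The median absolute log2 fold changes were 0.121, 0.142 and 0.184 in the 3 comparisons, and those of all tested genes were 0.142, 0.224 and 0.280.

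The widest ranges of group means among the 10 genes were those of gcn5, at 0.50, and jmj2, at 0.42 on the log2 CPM scale. Among the 4817 genes compared, each with 5 CPM or more on average, those whose log2 CPM over the 8 libraries was most like gcn5 were pct1 (Pearson's r = 0.996), cct1 (r = 0.996) and egd2 (r = 0.995). Egd2 had 533 CPM in TetR-Mit1, 759 in K587A and 452 in clr4oe. An r above 0.95 with gcn5 was shared by 235 genes. For jmj2 the most alike genes were mns1 (r = 0.966), SPAC18G6.13 (r = 0.962) and sgf73 (r = 0.962), and 7 genes had an r above 0.95. The 8 libraries share 3 genotypes, so these values describe the genotype pattern.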

How the data were processed

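The deposited table holds read counts per gene, whole numbers whose totals differ between libraries, in columns named for gene-level output of the aligner STAR, per the file headers. STAR, SAMtools, DESeq2 and the build ASM294v2 are named in the submitters' processing notes; versions, annotation, strand setting and filters are not given in the sources used here. All 8 columns were matched to samples by the library letter in the descriptions. The 10 genes and the related lists were chosen with earlier results of these data known.

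Symbols, exon lengths and overlaps came from the RefSeq annotation of ASM294v3 (4906 identifiers matched, 9 did not), and no coordinates are given because the builds differ in name. The list entries spp1, ada1 and pcu4 were taken as spf1, hfi1 and cul4, since spp1 and ada1 are now symbols of other genes.

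Genes were tested between genotypes with edgeR 4.0.16 (R 4.3.3): filterByExpr (4887 genes kept, 28 removed), TMM scaling, and the quasi-likelihood F test on a single fit of all 8 libraries with genotype as the factor. P-values were adjusted by Benjamini-Hochberg over all tested genes. The SE is the absolute log2 fold change divided by the square root of F, and 95% intervals use the t distribution of the moderated degrees of freedom. The biological coefficient of variation, common to all genes, was 3.58%. The fit was run on simulated data with known changes. Most changes called among the 10 genes were smaller than the smallest simulated one, so that run does not speak to them. All 10 genes passed the filter, far above the floor of 3 counts. Log2 CPM used a prior count of 2. Within each list, up to 2 genes a direction with the largest change were named in each comparison; other genes of a list were named to complete a count of 5 or fewer, after their values were seen. The other settings tried were scaling by median of ratios or by upper quartile, DESeq2 1.42.0, 2 other filters on low counts, fits to the 2 groups alone, a replicate block, an adjusted p under 0.01, removal of single libraries, and gene span in place of exon length.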

Additional observations from a re-analysis of the deposited data

How the results depend on the processing

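Under median-of-ratios scaling, DESeq2, both other filters and the fits to the 2 groups alone, the number of the 10 genes that passed was 7, 3 and 7 in K587A against TetR-Mit1, clr4oe against TetR-Mit1 and clr4oe against K587A, as reported. An adjusted p under 0.01 left 4 genes in K587A against TetR-Mit1. Leaving out single libraries gave 5 to 7, 2 to 4 and 5 to 8 of the 10 genes; 21 to 24, 21 to 26 and 27 to 31 partner genes; and 2269 to 2350, 2795 to 3053 and 3163 to 3404 of all genes. Fits that leave 1 clr4oe library assume that it varies like the other groups.

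Values near 0 changed sign without passing the test, and the cause was not tested. With upper-quartile scaling, in clr4oe, mst2 was at -0.0089 and leo1 at -0.023 against TetR-Mit1 and epe1 at -0.023 against K587A (log2). Leaving out single libraries gave log2 fold changes from -0.000102 (without K587A replicate 2) to 0.082 for epe1 and from -0.027 (without TetR-Mit1 replicate 2) to 0.073 for lsd2 in K587A against TetR-Mit1. It gave -0.118 to 0.087 for set1, above 0 without TetR-Mit1 replicate 1 or clr4oe replicate 2, and -0.015 (without clr4oe replicate 2) to 0.074 for leo1 in clr4oe against TetR-Mit1. For epe1 in clr4oe against K587A it gave -0.0072 (without K587A replicate 1) to 0.074. Calls of gcn5, paf1, set1 and set2 in K587A, of paf1 and lsd1 in clr4oe, and of gcn5, set2 and jmj2 between these held in every alternative run at the 0.05 threshold.

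With the replicate number as a block, 7, 3 and 8 of the 10 genes passed, the added gene being paf1 in clr4oe against K587A. Same-numbered K587A and TetR-Mit1 libraries deviated from their group means with correlations of 0.113, -0.0621 and 0.106 across genes, so the numbers were not taken to pair the libraries. With gene span as the length, leo1 was at 85.4 and paf1 at 86.2 CPM per kb in TetR-Mit1, which turns their order. Standard errors of the 10 genes ran from 0.04 to 0.09 (log2), which limits the differences that could pass.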

Other observations

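Across the 8 libraries, the log2 CPM of gcn5 had Pearson's r of 0.909 with set2, 0.875 with set1, -0.905 with mst2 and -0.896 with jmj2. These are descriptions over libraries that share 3 genotypes and the same scaling factors.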
